A study of Homo sapiens with 7 samples.

Results

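The genes described here encode the enzymes that turn lanosterol, the first sterol of the pathway, into cholesterol. The rule took every probe set that the platform annotation assigned to 1 of 9 listed genes alone, and 14 probe sets of 8 genes met it, out of 19775 genes with a probe set of their own. The ninth gene, CYP51A1, whose product removes a methyl group from the ring skeleton of lanosterol, had 2 probe sets, and both were also assigned to another gene, so it was not analysed here. The measured genes were MSMO1, NSDHL, HSD17B7, LBR, TM7SF2, EBP, SC5D and DHCR7.

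They were measured in HT1080, an established human fibrosarcoma cell line, with 7 cultures on 7 Affymetrix U133 Plus 2.0 arrays. One culture received 5% of a serum labelled pycnogenol-positive, from patients given this pine bark extract, and another 5% control serum, both for 2 h. A single compound was given for 2 h in 4 more, at 11.25 ng/ml for catechin, 6.25 ng/ml for both epicatechin and taxifolin, and 2195 ng/ml for resveratrol, and the remaining culture was labelled as having no treatment. All cells were kept in medium with fetal bovine serum, and the labels give neither the serum content of the exchanged medium, nor the number of serum donors, nor a solvent, so a difference from the untreated culture can include more than the named agent. Each condition had 1 array, so there is no replicate error to weigh a difference by and no p-value is given. The number of arrays limits the precision.

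Signals are on the deposited linear scale, on which the median of an array ran from 114 to 136. Differences are log2 of the first array's signal minus log2 of the second's, and a gene counts as lower or higher at a difference of at least 2-fold. The signal filter kept 9888 genes, those whose brightest probe set reached 269 on average, and no detection calls were at hand for dimmer ones. The 2 serum arrays stood apart over all genes, since the SD of log2 differences ran from 0.323 to 0.387 in the 10 pairs that held 1 serum array and from 0.235 to 0.282 in the 10 pairs that held none. Of 10 mesenchymal and fibrosarcoma markers 9 passed the filter, among them vimentin and CD44, and S100A4 did not. The largest mean differences of serum arrays from the others among these markers were 0.62 for FN1, 0.27 for MMP2 and -0.24 for PLAUR. FN1 read 10757 and 10325 with pycnogenol and control serum, against 6343 to 7571 on the other 5 arrays. Both serum arrays lay above all 5 others for 13.5% of all genes. Of 7 blood cell markers 6 lay under the filter's signal on every array, PTPRC included, and haemoglobin gene HBB read 522 and 382 with pycnogenol and control serum, against 227 to 413 on the 5 arrays without test serum. The summed signal of the blood markers was 770 to 979 on the serum arrays and 678 to 830 on the others, and its part in the results was not tested. Epithelial and endothelial markers passed the filter only as the keratin genes KRT8 and KRT18 (2 of 10).

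After the CYP51A1 step, LBR and TM7SF2 reduce the double bond that it leaves, and MSMO1, NSDHL and HSD17B7 act in turn to strip both methyl groups from the first ring. EBP then moves a double bond, SC5D adds another, and DHCR7 reduces a double bond of the second ring, which yields cholesterol when the side chain is already saturated. Transcription of many of these genes is driven by SREBP-2, a membrane-bound factor that is released when the endoplasmic reticulum is poor in sterol, is held back by INSIG proteins when sterol is plentiful, and works together with NF-Y, a factor that binds CCAAT boxes.

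Promoter windows of 4 of the genes are shown because their signals behaved differently with serum: MSMO1 differed most, SC5D differed less on a bright probe set, NSDHL varied among the cultures without test serum, and LBR differed little. Each window holds 250 bases before and 50 after the start of the gene in RefSeq, build GRCh38.p14, 5′ to 3′ on the strand of the gene, and capitals mark CCAAT or its complement ATTGG.
MSMO1: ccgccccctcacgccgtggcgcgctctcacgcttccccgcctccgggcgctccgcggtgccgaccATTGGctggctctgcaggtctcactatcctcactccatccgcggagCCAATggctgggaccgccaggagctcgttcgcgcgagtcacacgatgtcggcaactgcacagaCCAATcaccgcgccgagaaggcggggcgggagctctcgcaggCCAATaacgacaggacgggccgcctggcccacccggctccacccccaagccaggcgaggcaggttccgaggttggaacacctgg
SC5D: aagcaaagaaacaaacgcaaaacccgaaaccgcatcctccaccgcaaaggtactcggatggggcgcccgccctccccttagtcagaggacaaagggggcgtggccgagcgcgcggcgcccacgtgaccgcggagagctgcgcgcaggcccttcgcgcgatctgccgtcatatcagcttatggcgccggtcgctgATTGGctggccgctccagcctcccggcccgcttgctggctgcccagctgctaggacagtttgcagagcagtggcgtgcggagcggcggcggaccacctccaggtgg
NSDHL: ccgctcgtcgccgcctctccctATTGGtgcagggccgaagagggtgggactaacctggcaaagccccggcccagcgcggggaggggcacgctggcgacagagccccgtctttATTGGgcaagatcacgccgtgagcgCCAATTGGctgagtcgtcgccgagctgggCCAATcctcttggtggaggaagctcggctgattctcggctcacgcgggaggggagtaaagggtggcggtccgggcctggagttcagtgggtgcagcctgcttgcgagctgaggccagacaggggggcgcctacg
LBR: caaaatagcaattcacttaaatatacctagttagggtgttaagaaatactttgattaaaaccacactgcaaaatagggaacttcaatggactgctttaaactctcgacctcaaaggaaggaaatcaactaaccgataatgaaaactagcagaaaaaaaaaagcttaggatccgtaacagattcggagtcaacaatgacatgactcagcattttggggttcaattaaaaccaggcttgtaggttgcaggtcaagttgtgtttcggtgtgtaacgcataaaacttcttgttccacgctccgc
The MSMO1 window lies at chr4:165327419-165327718 on the plus strand and the SC5D window at chr11:121292521-121292820 on the plus strand. The NSDHL window lies at chrX:152830813-152831112 on the plus strand and the LBR window at chr1:225428772-225429071 on the minus strand. All 9 genes had a window in the RefSeq table, and SC5D and DHCR7 had 2 each. MSMO1 held 4 CCAAT boxes on either strand, found in at least that number in 0.991% of 35116 windows, and NSDHL held 5, with 2 of them sharing bases across strands, which 0.359% of windows reached. EBP held 3, HSD17B7 held 2, DHCR7 held 2 in one window and 0 in the other, and SC5D and TM7SF2 held 1, where 34.6% of all windows held at least 1. LBR and CYP51A1 held 0 in these windows. The letters TCACNCCAC, a form of the sterol regulatory element that SREBP binds, were searched on both strands and were in none of these windows and in 1.13% of all windows. The GC box GGGCGG, the core of Sp1 sites, was found 4 times in the TM7SF2 window, 4 and 0 times in those of DHCR7, 2 times in that of MSMO1, 1 time each in those of HSD17B7, EBP, CYP51A1 and SC5D, and 0 times in those of NSDHL and LBR, against at least 1 in 45.0% and at least 4 in 9.06% of all windows. The E-box CACGTG was found in the SC5D windows alone, against 7.26% of all windows. A match describes the letters of a window, not binding, and whether the number of boxes goes with the serum difference was not tested.

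MSMO1, the oxidase that begins removal of the methyl groups of the first ring, was the member with the largest difference. Its single probe set read 5733 with pycnogenol serum and 4764 with control serum, against 18728.5 with catechin, 20005.5 with epicatechin, 18529 with taxifolin, 18325 with resveratrol and 16569 untreated. Both serum arrays lay far under the other 5, with the lowest of the 5 at 2.89 times the higher serum array. The difference from the untreated array was -1.53 with pycnogenol serum and -1.80 with control serum, so the signal was 2.89-fold and 3.48-fold lower. In control serum 5 of the 9888 genes had a lower value than MSMO1, which ranked 6 from the lowest, and in pycnogenol serum it ranked 39. It was the 1 member of 7 above the filter that was lower by at least 2-fold in either serum, where 1.51% of all genes were lower at that threshold with pycnogenol serum and 0.758% with control serum. None was higher at that threshold, against 0.728% and 0.445% of all genes. In a bulk sample, fewer cells that express a gene and less RNA per cell cannot be told apart.

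**Figure D1:**
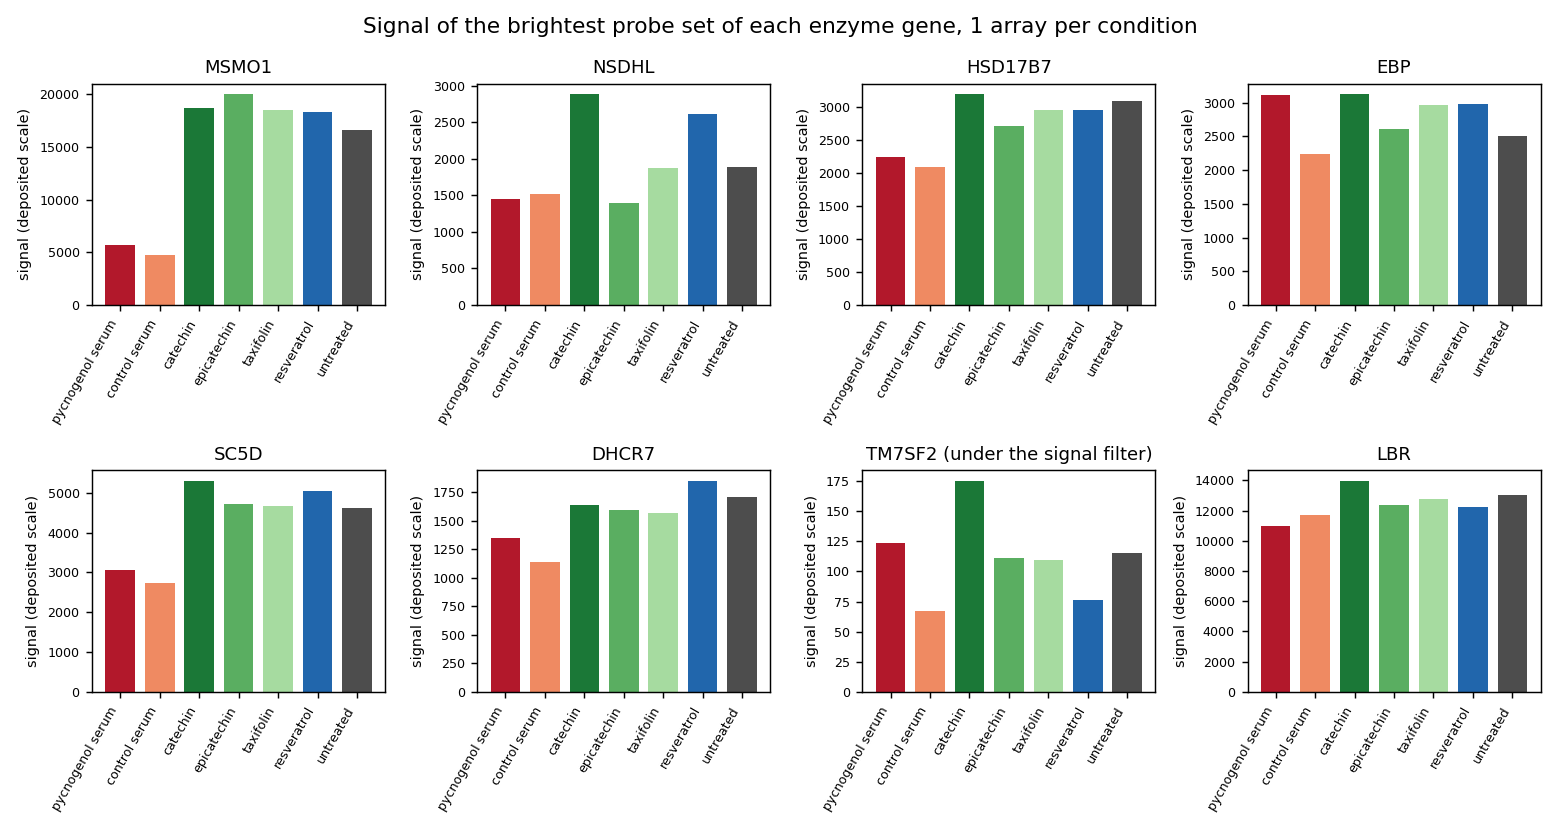
Signal of the brightest probe set of each of the 8 measured genes (vertical axis, deposited linear scale starting at 0) in the 7 cultures (horizontal axis), with 1 bar per array and no error bars because each condition had 1 array. MSMO1 reads 5733 and 4764 in the serum arrays and at least 16569 in the other 5, while EBP shows no such step, LBR a gap of 1.05-fold, and TM7SF2 lies under the signal filter throughout.

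HSD17B7, the ketosteroid reductase of the same demethylation, was read by 1 probe set whose suffix _x_at marks probes that can match other transcripts. It gave 2244 with pycnogenol serum and 2095 with control serum, against 3190 with catechin, 2712 with epicatechin, 2945 with taxifolin, 2948 with resveratrol and 3094 untreated. Both serum arrays lay under all the others, by less than for MSMO1. The difference from the untreated array was -0.46 with pycnogenol serum and -0.56 with control serum. The pseudogene HSD17B7P2 has a probe set of its own, which read 48.0 with pycnogenol serum and 99.6 with control serum, against 34.4 to 115 on the other 5 arrays, under the filter's signal everywhere. How much the _x_at probe set reads from other transcripts was not tested.

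NSDHL, the dehydrogenase that acts between MSMO1 and HSD17B7, lacked their gap between the serum arrays and the other 5. As the mean of the serum arrays minus the mean of the 5 others, it differed by -0.47 and -0.23 on its 2 probe sets. HSD17B7 differed by -0.46 in that comparison. Its brighter probe set read 1447 with pycnogenol serum and 1522 with control serum, against 2882 with catechin, 1389 with epicatechin, 1871 with taxifolin, 2617 with resveratrol and 1892 untreated. The epicatechin array was the lowest of all 7, so the serum arrays did not lie apart from the others. Its second probe set read 1105 with pycnogenol serum and 854 with control serum, against 1206, 806, 1187, 1564 and 1074 with catechin, epicatechin, taxifolin, resveratrol and no treatment. On both probe sets epicatechin was the lowest array, at -0.45 and -0.41 from untreated, and resveratrol lay 0.47 and 0.54 above untreated, while catechin lay 0.61 above on the first and 0.17 above on the second. NSDHL thus had the widest spread of the 7 members among the 5 arrays without test serum, 1.05 on the log2 scale, and 1.89% of all genes had a spread at least that wide, where the median gene had 0.32. With pycnogenol serum the first probe set differed from the untreated array by -0.39 and the second by 0.041, and with control serum they differed by -0.31 and -0.33.

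SC5D, the desaturase that adds a double bond to the second ring, gave the next largest difference after MSMO1 with either serum. Its main probe set read 3063 with pycnogenol serum and 2742 with control serum, against 5301 with catechin, 4712 with epicatechin, 4678 with taxifolin, 5054 with resveratrol and 4631 untreated. The 5 arrays without test serum lay within 0.19 of each other on the log2 scale, and both serum arrays lay under all of them. The difference was -0.60 with pycnogenol serum and -0.76 with control serum, that is 1.51-fold and 1.69-fold lower, short of 2-fold. In control serum 2.39% of all genes had a value as low or lower, and in pycnogenol serum 5.88%. The other SC5D probe set never exceeded 76.4 and lay under the floor of 34.9 on 5 of 7 arrays, so it gave no measure of the gene. A mean over both probe sets moved SC5D to -0.30 and 0.019 in the same comparisons.

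DHCR7, the reductase of the last step of this branch, had 2 probe sets of usable signal. The brighter one read 1350 with pycnogenol serum and 1134 with control serum, against 1636, 1595, 1569, 1849 and 1707 with catechin, epicatechin, taxifolin, resveratrol and no treatment. The other read 954 with pycnogenol serum and 930 with control serum, against 1179, 1222, 1111, 1078 and 1041 on the same 5 arrays. Serum arrays were the lowest on both probe sets, but the sizes differed, with -0.34 and -0.13 for pycnogenol serum against untreated and -0.59 and -0.16 for control serum. The values of the second probe set were smaller than its spread among the arrays without test serum, 0.23, and those of the first were larger than its own, 0.24.

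EBP, the isomerase, had no common direction in the 2 serum arrays. Its 2 probe sets above the filter read 3110 and 2537 with pycnogenol serum and 2239 and 2066 with control serum, against 2512 to 3127 and 2421 to 3130 on the 5 other arrays. Control serum was the lowest array on both, at -0.17 and -0.26 from untreated, whereas pycnogenol serum lay inside the range of the others at 0.31 and 0.034. The remaining 2 EBP probe sets were under the filter on average, at 189 to 323 and 32.2 to 180 over the 7 arrays.

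**Figure D2:**
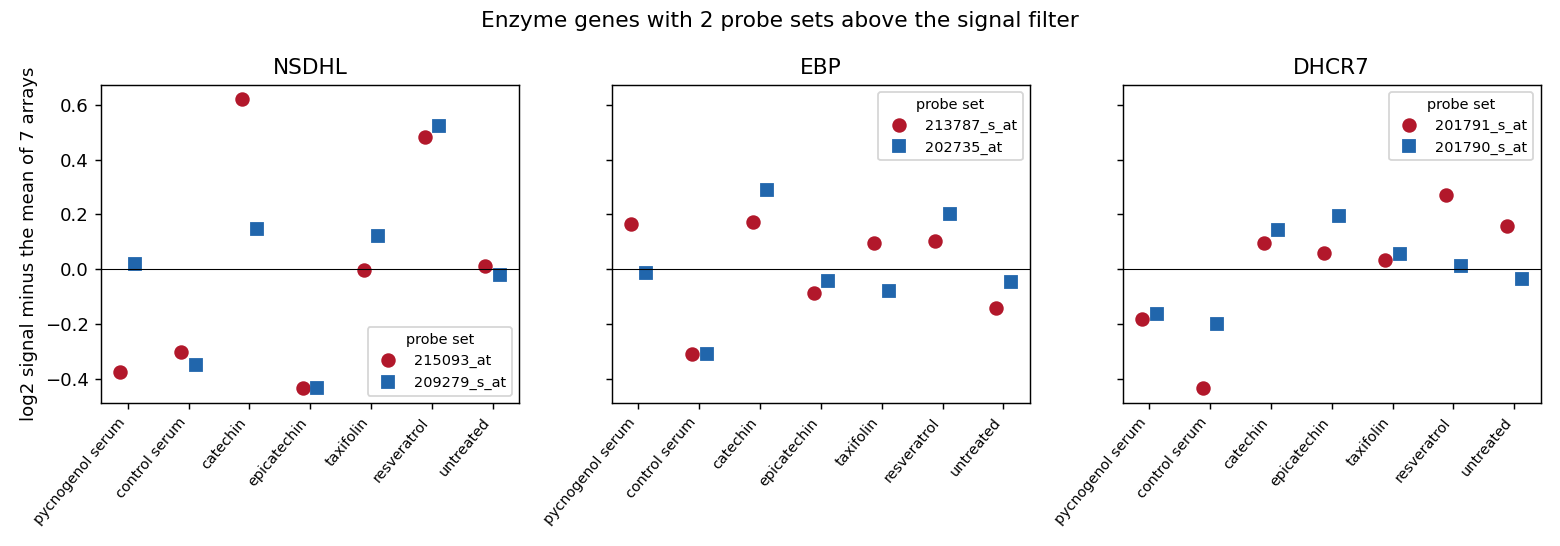
Log2 signal of each probe set minus its own mean over 7 arrays (vertical axis) for the 3 genes with 2 probe sets above the signal filter, by culture (horizontal axis), with 1 point per array. Both NSDHL probe sets are lowest with epicatechin, both EBP probe sets are lowest with control serum, and both DHCR7 probe sets are lowest in the 2 serum arrays.

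LBR, the lamin B receptor, is an inner nuclear membrane protein that anchors heterochromatin and whose membrane part is a sterol reductase. It read 10977 with pycnogenol serum and 11683 with control serum, against 13968.5 with catechin, 12361 with epicatechin, 12758 with taxifolin, 12231 with resveratrol and 13007 untreated. The serum arrays were the lowest, although the gap to the next array was only 1.05-fold. The differences of -0.24 with pycnogenol serum and -0.15 with control serum were about the spread of the arrays without test serum, 0.19, and under centring on array medians they became -0.13 and 0.014. TM7SF2, the other reductase for the same step, read 124 with pycnogenol serum and 67.3 with control serum, against 76.2 to 175 on the 5 others, under the filter's signal on every array. No order among its values was read.

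Over the 7 members above the filter, the median difference was -0.39 with pycnogenol serum and -0.56 with control serum against untreated, where the medians of all 9888 genes were 0.017 and 0.0076. With pycnogenol serum 6 of 7 members lay below 0, as 47.5% of all genes did. With control serum 7 of 7 lay below 0, as 48.7% of all genes did, but 5 of 7 did so when arrays were centred on their medians, which put the median of all genes at 0.18, and 6 of 7 did so with the mean of all probe sets. Both serum arrays lay below all 5 others for MSMO1, HSD17B7, SC5D, DHCR7 and LBR, 5 of 7 members, a pattern shared by 16.1% of all genes, and above all 5 others for 0 of 7 members and 13.5% of all genes. Taken as the mean of the 2 serum arrays minus the mean of the 5 others, the members' median was -0.46, MSMO1 at -1.82 was the 1 member lower by at least 2-fold, where 0.597% of all genes were, and 0 were higher, where 0.111% were. Counted by probe set, 6 of 10 above the filter lay below in this way, against 14.8% of all probe sets, and 0 of 10 above, against 12.5%. These comparisons share the untreated array or both serum arrays and are not separate evidence of a direction.

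**Figure D3:**
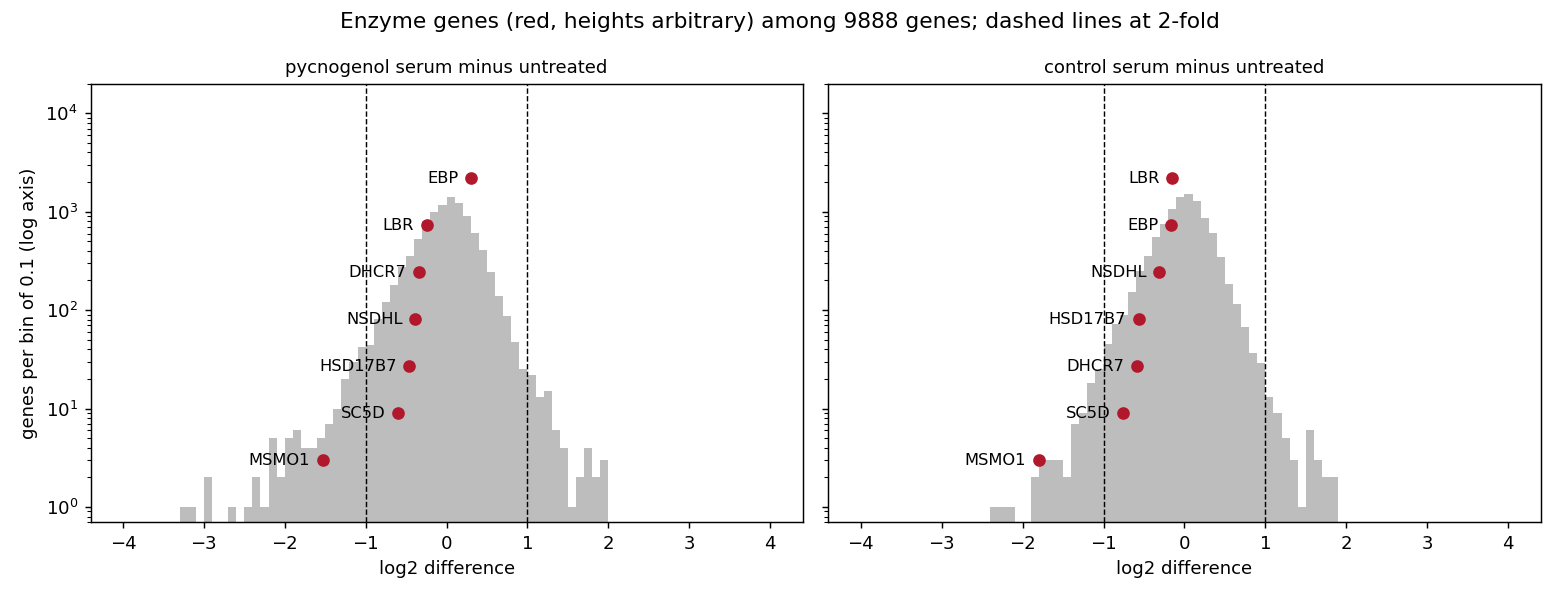
Log2 difference from the untreated array (horizontal axis) with pycnogenol serum (left) and control serum (right), as a histogram of 9888 genes per bin of 0.1 (grey, log axis), with the 7 members above the signal filter as red points at arbitrary heights. MSMO1 lies past the dashed line at 2-fold in both panels, at -1.53 and -1.80, and the other members lie inside it.

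Set directly against control serum, the serum taken after pycnogenol gave small differences of mixed sign. The members' median was 0.16, with 5 of 7 above 0, against 0.0083 and 51.6% for all genes. No member was past 2-fold, where 0.314% of genes were lower and 0.222% higher. EBP differed by 0.47 on its brighter probe set and 0.30 on the other, MSMO1 by 0.27, DHCR7 by 0.25 and 0.036, SC5D by 0.16 and HSD17B7 by 0.099. NSDHL gave opposite signs on its probe sets, -0.073 and 0.37, and LBR gave -0.090. Between pairs of arrays without test serum, the root mean square difference of the brighter probe set was 0.19 for EBP, 0.14 for MSMO1, 0.13 for DHCR7 and 0.12 for SC5D, all smaller than the differences on those probe sets. It was 0.60 for NSDHL, 0.13 for HSD17B7 and 0.11 for LBR, larger than theirs. Those pairs are of different conditions, and how many of all genes exceed their own value was not counted. The comparison thus does not weigh the differences against noise.

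With the 4 compounds no member was past 2-fold from the untreated array in either direction. At that threshold 0.202% of all genes were lower with catechin, 0.152% with epicatechin, 0.243% with taxifolin and 0.314% with resveratrol, and 0.253%, 0.162%, 0.222% and 0.415% were higher. The members' medians were 0.18 with catechin, -0.073 with epicatechin, -0.016 with taxifolin and 0.13 with resveratrol, against 0.035, 0.032, 0.032 and 0.025 for all genes. MSMO1 lay above the untreated array with all 4 compounds, at 0.18, 0.27, 0.16 and 0.15, and so did SC5D, at 0.19, 0.025, 0.014 and 0.13. EBP did so on its brighter probe set, at 0.32, 0.057, 0.24 and 0.25, though its second gave -0.033 with taxifolin. These are 3 of 7 members, and 25.9% of all genes lay above the untreated array with all 4 compounds, which share that array. None of the 7 lay below it with all 4, as 14.7% of all genes did. DHCR7 lay above untreated with all 4 on its second probe set, at 0.18, 0.23, 0.094 and 0.050. Its brighter probe set, used for these counts, gave -0.061, -0.098, -0.12 and 0.12.

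Catechin and epicatechin differ in the arrangement of groups around a ring carbon, and taxifolin carries an added ketone, but catechin was given at 11.25 ng/ml and the others at 6.25 ng/ml, so 1 pair was matched in concentration and time. Between epicatechin and taxifolin the members' median difference was -0.046, against -0.00070 for all genes, and 0 of 7 members were past 2-fold, where 0.101% of genes were lower and 0.222% higher with epicatechin. NSDHL was the member that differed most, by -0.43 on its brighter probe set and -0.56 on its second. Its root mean square difference of 0.60 between arrays without test serum includes this pair, so it cannot weigh this difference. EBP differed by -0.18 on its brighter probe set and 0.039 on its second, and MSMO1 by 0.11. With 1 array each there is no interval for these differences, and they do not show that the compounds act alike or differently.

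The enzymes before lanosterol came from a list of 12 genes, of which 10 were measured and 9 passed the filter. They included 1 gene whose differences were near those of MSMO1. The 9 count GGPS1, which lies on a side branch that does not lead to lanosterol. Their median was -0.50 with pycnogenol serum, with 6 of 9 below 0, and -0.14 with control serum, with 9 of 9 below 0, where 47.5% and 48.7% of all genes were. Lower by at least 2-fold was 1 gene in either, where 1.51% and 0.758% of all genes were. That gene was HMGCS1, which makes the precursor of mevalonate and read 939 with pycnogenol serum and 875 with control serum, against 2925 to 4103 on the 5 others, differences of -1.64 and -1.74 from untreated. IDI1, an isomerase of the isoprenoid units, differed by -0.75 and -0.98, and SQLE, the squalene epoxidase that comes before the lanosterol-forming cyclase, by -0.50 and -0.61. LSS, that cyclase, differed by -0.55 with pycnogenol serum and -0.088 with control serum. With control serum, those of the 9 other than HMGCS1, IDI1 and SQLE lay between -0.15 and -0.014. Centring on array medians, which was not applied to this list, put the median of all genes at 0.18 with control serum. Both serum arrays lay below all 5 others for 3 of the 9, HMGCS1, IDI1 and SQLE, a pattern that 16.1% of all genes had. As the mean of the serum arrays minus the mean of the others, 2 of the 9 were lower by at least 2-fold. These were HMGCS1 at -1.93 and IDI1 at -1.01, where 0.597% of all genes were lower to that degree.

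**Figure D4:**
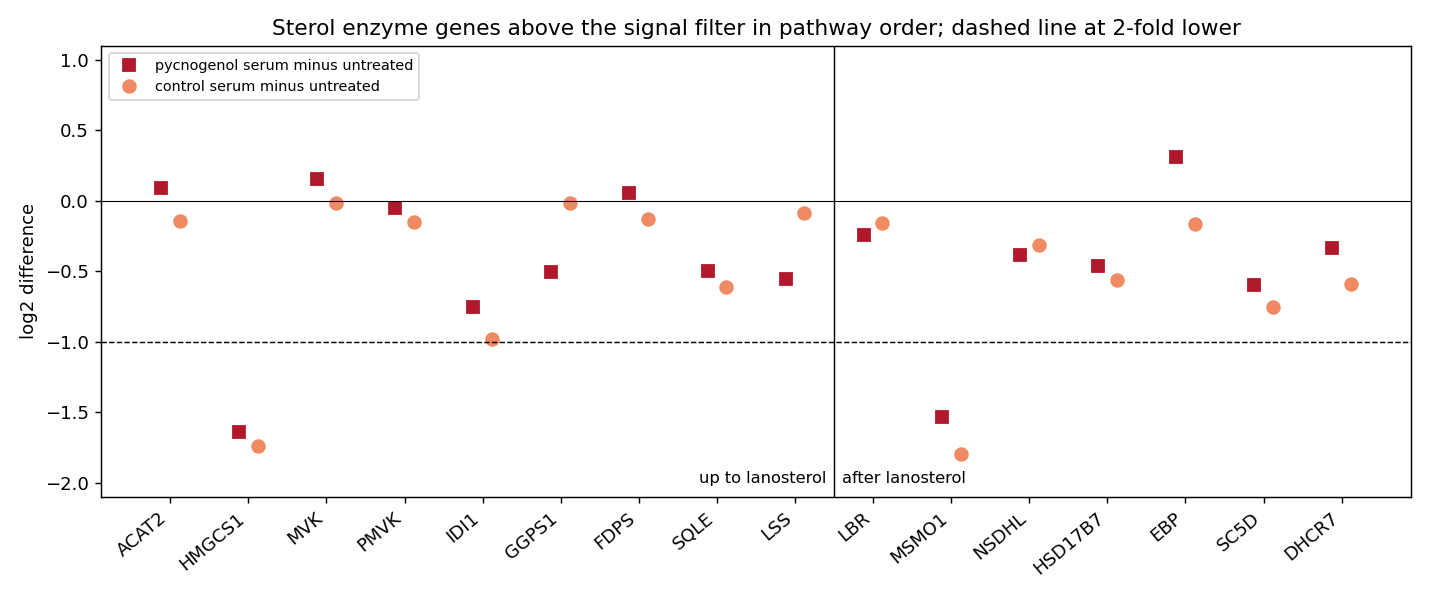
Log2 difference from the untreated array (vertical axis) with pycnogenol serum (squares) and control serum (circles) for the sterol enzyme genes above the signal filter, from the start of the pathway on the left to its end on the right, 1 value per pair of arrays. HMGCS1 before lanosterol and MSMO1 after it lie under the dashed line at 2-fold lower with both sera. GGPS1, drawn among the genes before lanosterol, belongs to a side branch that does not lead to it.

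Among the proteins that serve these enzymes, the electron donors POR, CYB5A, CYB5B and CYB5R3 and the scaffold protein ERG28, 5 passed the filter and 0 were past 2-fold. Their median was 0.14 with pycnogenol serum and 0.028 with control serum. ERG28, which in yeast tethers the demethylating enzymes together, read 2462 with pycnogenol serum and 2441 with control serum, against 3038 to 3883 on the 5 others, and differed by -0.30 and -0.32 from untreated. Both serum arrays lay below all the others for 1 of these 5 genes, near the share of 16.1% over all genes. POR, the reductase that feeds cytochrome P450 enzymes, differed by 0.39 and 0.042, and CYB5A, a cytochrome b5, by -0.067 and 0.028.

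Of 12 genes for SREBP control and sterol supply, 11 passed the filter, and their median was -0.34 with pycnogenol serum and -0.21 with control serum, with 9 of 11 below 0 in both, where 47.5% and 48.7% of all genes were. Lower by at least 2-fold were 2 of 11 with pycnogenol serum and 3 of 11 with control serum, where 1.51% and 0.758% of all genes were. INSIG1, which retains SREBP in the endoplasmic reticulum and is itself a target of it, read 1821 with pycnogenol serum and 1889 with control serum, against 6287 to 8806 on the 5 others, and differed by -1.79 and -1.73 from untreated. STARD4, a sterol carrier, differed by -1.27 and -1.15, and NPC1, which releases sterol from lysosomes, by -0.78 and -1.05. The gene of SREBP-2 itself, SREBF2, read 623 with pycnogenol serum and 436 with control serum, against 536 to 792 on the 5 others. Control serum was thus its lowest array, and pycnogenol serum lay inside the range of the others. Its differences from untreated were -0.35 with pycnogenol serum and -0.86 with control serum. Both serum arrays lay below all 5 others for 5 of the 11 genes, SREBF1 among them, a pattern that 16.1% of all genes had.

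Genes with the pattern most like MSMO1 were sought by the root mean square distance between log2 profiles over the 7 arrays, each centred on its own mean, among the 9888 genes. The nearest were ECM2, an extracellular matrix protein gene, at 0.078, INSIG1 at 0.15, HMGCS1 at 0.16, the cytokine gene IL24 at 0.17 and ANKRA2, an ankyrin repeat protein gene, at 0.25, where the MSMO1 profile had a root mean square of 0.83 around its own mean. Among the members SC5D was the nearest to MSMO1, at 0.49 and rank 85 of all genes, followed by HSD17B7 at 0.63 and DHCR7 at 0.64. NSDHL, the other member with a range of at least 1 on the log2 scale, had other neighbours, LOC100287387 at 0.14, SWT1, SHPK and ITGB2-AS1 at 0.15 and ENDOV at 0.16, around a profile of 0.38. Such nearness describes 7 arrays that share processing and conditions.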

How the data were processed

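Gene expression was measured in 7 HT1080 cultures on 7 arrays with 54675 probe sets each. The deposited values were signal intensities per probe set, made by the authors with MAS5 per the submitters' processing notes. The MAS5 version is not given in the sources used here. The scale is linear, and every array had a trimmed mean (2% taken off each end) of 1000.13 or 1000.14 when checked. Such scaling fixes each array's trimmed mean, so a shift common to all genes cannot be seen.

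Probe sets were named from the platform annotation, with symbols updated through the RefSeq table for GRCh38.p14. Of them 41097 had 1 gene and were used, 1801 had several, and 11777 had none listed. A floor of 34.9, the 25th percentile of the whole table, was set before log2 was taken. A gene's value is that of its brightest probe set by mean log2 signal, and the 9888 of 19775 genes at or above the median of these means, 8.07, were compared, while every member probe set is described whether it passed or not. No columns of other series were present (0). No test was run, because each of the 7 conditions had 1 array. The calling and pattern counts were tested on simulated data with independent noise of the same size on every array. This checks the counting, not whether these arrays behave in that way. The members and the lists of the other genes were chosen with earlier results of these data known. All members were named, and of the other lists the genes past 2-fold with serum and the 3 with the largest mean difference of serum arrays from the others. SREBF1, SREBF2, LSS, GGPS1, PTPRC, vimentin, CD44 and S100A4 were named beyond this rule after their values were seen. The alternatives were quantile normalization, centring on array medians, no floor, a floor at the 40th percentile, no filter, a filter at the 75th percentile, the mean of all probe sets, no _x_at or _s_at probe sets, thresholds of 1.5-fold and 3-fold, another reference and leaving out 1 array. Python 3.11.15, numpy 2.4.6, pandas 2.3.3 and matplotlib 3.10.9 were used.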

Additional observations from a re-analysis of the deposited data

How the results depend on the processing

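No paired analysis was possible because each condition had 1 array. A value is said to have moved when it changed by more than its root mean square over the 10 pairs of arrays without test serum, which was 0.11 for the member median. Of 85 alternative values of member medians 78 stayed within that, and of 221 counts 215 stayed within 1.5 times. Of 550 differences of single members 517 stayed within their own spread, and no difference past 2-fold turned its sign. The floor and filter settings cannot change the difference of a member this bright, so part of the 517 were fixed in advance. Centring on array medians gave member medians of -0.27 with pycnogenol serum and -0.39 with control serum against untreated, and -0.34 for both serum arrays against the 5 others; since it moved all genes alike, the distance of the members from the median gene with control serum stayed at -0.57. The mean of all probe sets gave -0.24, -0.38 and -0.34 in the same order, and includes dim probe sets of SC5D and EBP. Without _x_at and _s_at probe sets 4 members were left, with a median of -0.29 with control serum, and 2 of the 4 had both serum arrays below all others. At 1.5-fold, 2 members were lower with pycnogenol serum, 3 with control serum and 2 for both serum arrays against the others. With catechin 1 was higher at 1.5-fold. At 3-fold, 0 were lower with pycnogenol serum. The shares of all genes at 1.5-fold and 3-fold were not counted, so these counts have no background. Leaving out 1 array at a time, the median for serum against the others ran from -0.51 to -0.39 and 5 to 6 members had the serum arrays below all others. EBP in that comparison was -0.34 without the pycnogenol serum array and 0.14 without the control serum array. LBR left the pattern of serum arrays below all others under centring on array medians, where control serum lay 0.014 above untreated. The share of all genes with that pattern was not counted in the alternative settings. Signals under 269 are not shown to be above background.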

Other observations

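Targets of the liver X receptors, which respond to oxidised sterols and drive sterol export, had no member past 2-fold with serum. Of 7 listed genes 6 were measured and 4 passed the filter, with a median of 0.37 with pycnogenol serum and 0.35 with control serum against untreated, and 3 of 4 above 0 in both, where 52.5% and 51.3% of all genes were. MYLIP, a ubiquitin ligase for lipoprotein receptors, read 559 with pycnogenol serum and 430 with control serum, against 261 to 455 on the 5 arrays without test serum. ABCA1, a cholesterol exporter, differed by 0.24 and 0.49 with both serum arrays above all 5 others, as for 13.5% of all genes. SMPDL3A, a phosphodiesterase, differed by -0.30 and -0.48 with both serum arrays below all 5 others, as for 16.1% of all genes.

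Proteins that share the nuclear envelope and its chromatin with LBR showed no common direction. All 11 listed genes passed the filter, with a median of 0.11 with pycnogenol serum and 0.052 with control serum and 0 past 2-fold. The lamin genes LMNB1 and LMNB2 differed by 0.31 and 0.47 with pycnogenol serum and by 0.23 and 0.33 with control serum, and the heterochromatin protein gene CBX5 by 0.047 and -0.69. Both serum arrays lay above all 5 others for 3 of the 11 genes, LMNB1 and LMNB2 among them, against 13.5% of all genes. They lay below all 5 others for 2 of the 11, against 16.1% of all genes.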
